A study of Mus musculus with 2 samples.

Results

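The genes described are 46 genes of the G2 phase and mitosis, taken by symbol from a fixed list of the genes that drive a cell from the end of DNA synthesis to its division, out of 27998 genes in the deposited tables. All 46 were found, and each had at least 100 unique molecular identifiers (UMIs) over the kept cells, as did 11159 genes in all. They fall into 10 roles: cyclins with *Cdk1*, partners of the anaphase-promoting complex, mitotic kinases, the spindle checkpoint, the kinetochore, the chromosomal passenger complex, kinesins, spindle proteins, cytokinesis and chromosome structure.

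Cells build up the messages of this group through S phase and G2, and most of them are cleared when the cell leaves mitosis, so their level in a tissue follows both how many cells cycle and how much each cycling cell holds. Cyclin B with *Cdk1* opens mitosis, the kinetochore and spindle align the chromosomes, the checkpoint holds the anaphase-promoting complex back until they are attached, and the contractile ring then parts the daughter cells. In embryonic skin the basal layer divides to feed both the stratified epidermis and the budding hair follicles (HFs).

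Epithelial cells of the back skin of C57BL/6 embryos at embryonic day 17 (E17) were profiled by droplet single-cell RNA sequencing of 3′ ends. The Ctrl library came from *Mettl3* fl/+, Rosa16-YFP fl/+, K14Cre embryos and the cKO library from *Mettl3* fl/fl, Rosa16-YFP fl/+, K14Cre embryos, the alleles being spelled as in the labels. Both thus carried the Cre recombinase under the keratin 14 promoter, which is active in the skin epithelium, and the YFP reporter by which the cells were sorted, and the Ctrl embryos also carried 1 *Mettl3* allele that Cre can delete. *Mettl3* encodes the catalytic subunit of the enzyme that writes N6-methyladenosine (m6A) into messenger RNA. How many embryos were pooled was not stated.

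There was 1 library of each genotype, so no difference below was tested, and every interval is an exact 95% interval that covers counting error only, not the spread between embryos. Barcodes with at least 1800 genes were kept, which gave 4447 Ctrl and 3577 cKO cells with medians of 8941 and 8581 UMIs per cell, and 16 of these barcodes occurred in both libraries. *Mettl3* stood at 12.7 UMIs per 1000000 of its cells' UMIs (CPM; 11.7 to 13.8) in Ctrl and 6.18 CPM (5.38 to 7.08) in cKO cells, but reads are tags of the 3′ end, so a message without its floxed part can still be counted and this level does not measure the deletion. *Xist* was found in 99.8% of Ctrl cells and as 1 UMI in cKO cells, while *Ddx3y* had 0 UMIs in Ctrl cells and was found in 32.8% of cKO cells, so sex and genotype cannot be told apart. Markers of other cell types were low in both libraries. Merkel cell markers summed to 36.7 and 33.7 CPM, those of melanocytes or Schwann cells to 24.4 and 10.1 CPM, mesenchymal markers to 22.8 and 26.2 CPM and those of endothelium or blood to 56.1 and 52.0 CPM in Ctrl and cKO cells. Of these lists, *Ptprc* and *Cd52* were at 0 in Ctrl and *Cdh5* at 0 in cKO cells.

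Cells were gated by marker UMIs into basal-like (2777 Ctrl and 1944 cKO cells), suprabasal-like (445 and 337), HF WNThi-like (219 and 266) and HF WNTlo-like cells (660 and 663). Each of the 4 marker lists had its highest sum in the gate of its name, but most of these markers set the gates, so this does not test the names. The 5 basal markers, led by *Krt14*, summed to 21401 and 14726 CPM in basal-like cells. The 7 suprabasal markers, led by *Krt10* and *Krtdap*, summed to 44822 and 37884 CPM in suprabasal-like cells. In HF WNThi-like cells the HF WNThi list summed to 1569 and 1480 CPM. The HF WNTlo list, with *Krt17*, which its gate left out, was higher there, at 2507 and 1640 CPM. The basal marker sum was lower in cKO in every gate, and its part in the values below was not tested beyond a scaling that left the most abundant genes out. A sort on integrins and YFP helps to set the share of each gate.

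A sequence feature that the list did not use was shared by most members. Promoters of genes expressed in G2 and M often hold a cell cycle genes homology region (CHR), bound by the DREAM and MuvB complexes, and CCAAT boxes, bound by the factor NF-Y. Windows of 300 bases around the start site (RefSeq, GRCm38.p6) were at hand for 39 of the 46 members. A gene was counted when any of its windows held the letters. TTTGAA on either strand was found in 30 members (76.9%) against 20.2% of 27025 genes. CCAAT on either strand was found in 31 (79.5%) against 41.1%, and both in 26 (66.7%) against 7.97%. The windows of 2 members with a ratio of cKO to Ctrl above 1 and 2 with one below 1 in cycling cells are shown, 250 bases before to 50 after the start, with CHR and CCAAT letters on either strand in capitals, to set the content of the windows beside the direction of the gene.
*Mki67* (chr7:135716330-135716629, minus strand): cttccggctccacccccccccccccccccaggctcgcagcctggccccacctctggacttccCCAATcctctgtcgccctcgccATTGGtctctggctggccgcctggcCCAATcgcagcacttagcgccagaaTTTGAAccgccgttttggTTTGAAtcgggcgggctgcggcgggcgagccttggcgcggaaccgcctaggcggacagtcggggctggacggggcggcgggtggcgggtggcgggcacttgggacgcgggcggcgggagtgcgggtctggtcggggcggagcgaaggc
*Cdca8* (chr4:124936868-124937167, minus strand): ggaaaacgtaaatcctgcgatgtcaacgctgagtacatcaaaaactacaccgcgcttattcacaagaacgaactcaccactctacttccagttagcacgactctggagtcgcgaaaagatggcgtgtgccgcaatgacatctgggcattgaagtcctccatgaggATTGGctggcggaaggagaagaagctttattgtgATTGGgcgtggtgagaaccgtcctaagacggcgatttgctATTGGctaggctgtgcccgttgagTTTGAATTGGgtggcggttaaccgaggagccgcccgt
*Birc5* (chr11:117848987-117849286, plus strand): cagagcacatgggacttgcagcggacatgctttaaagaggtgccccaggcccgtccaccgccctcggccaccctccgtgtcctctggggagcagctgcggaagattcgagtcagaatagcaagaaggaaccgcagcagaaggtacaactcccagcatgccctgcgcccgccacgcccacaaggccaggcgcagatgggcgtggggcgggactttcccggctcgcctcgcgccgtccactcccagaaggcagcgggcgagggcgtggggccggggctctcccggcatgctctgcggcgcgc
*Nusap1* (chr2:119618048-119618347, plus strand): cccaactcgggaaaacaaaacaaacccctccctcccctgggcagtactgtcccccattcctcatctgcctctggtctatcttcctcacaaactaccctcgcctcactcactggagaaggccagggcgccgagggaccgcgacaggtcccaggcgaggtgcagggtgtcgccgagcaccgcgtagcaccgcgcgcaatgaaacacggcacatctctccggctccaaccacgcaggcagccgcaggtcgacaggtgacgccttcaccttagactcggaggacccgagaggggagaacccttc
The *Mki67* and *Cdca8* windows held both motifs, which share a base in the last capitals of *Cdca8*, and those of *Birc5* and *Nusap1* held neither. These windows were picked, so they show that such windows exist and not how content and direction go together. Only the exact letters were searched, and variants of them were not counted. Among members with a ratio of cKO to Ctrl above 1 in cycling cells, 10 of 13 windows had the CHR letters, and among those below 1, 20 of 26. For CCAAT the counts were 11 of 13 and 20 of 26. Over all kept cells the CHR letters were in 17 of 24 windows above 1 and 13 of 15 below, and CCAAT in 18 of 24 and 13 of 15. A match of letters is a description and not a bound site.

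A larger share of cKO than of Ctrl cells passed a gate on G2 and mitosis genes. Cells in other phases of the cycle can fall below that gate. A cell was called cycling when it held at least 6 UMIs of 48 other G2 and mitosis genes, none of them a member, after every cell had been thinned to 5500 UMIs. Cells with fewer UMIs, 172 Ctrl and 244 cKO, were left out. By this gate 45.3% (43.8 to 46.8) of 4275 Ctrl and 49.96% (48.2 to 51.7) of 3333 cKO cells cycled, a difference of 4.65 percentage points (2.38 to 6.90). In basal-like cells the shares were 47.7% (45.8 to 49.6) and 54.3% (52.0 to 56.6), and in HF WNThi-like cells 45.5% (38.7 to 52.5) and 54.7% (48.2 to 61.0). The intervals overlapped in HF WNThi-like cells, in HF WNTlo-like cells, with 38.3% (34.4 to 42.3) and 40.8% (36.8 to 45.0), and in suprabasal-like cells, with 34.3% (29.9 to 39.0) and 35.7% (30.5 to 41.1). Merkel-like cells, gated by Merkel cell markers, passed the gate in 7 of 23 Ctrl and 1 of 17 cKO cells. The 7 Ctrl cells held a median of 18 gate UMIs. Merkel cells are known as a type that has left the cycle, and what the passing cells are was not tested.

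**Figure D1:**
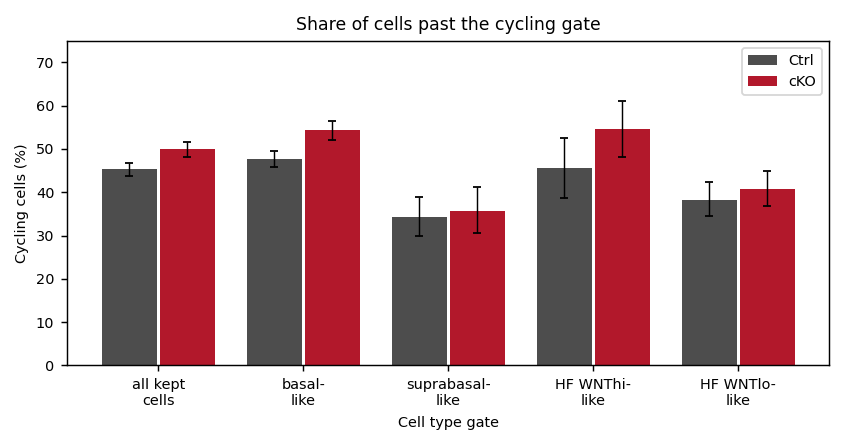
Share of cells past the cycling gate in percent, for all kept cells and the 4 gated types, in the Ctrl (grey) and cKO (red) library; whiskers are exact binomial 95% intervals. The cKO bar is the higher one in each of the 5 pairs, and the intervals are apart for all kept cells (45.3% against 49.96%) and for basal-like cells (47.7% against 54.3%).

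The excess lay at 6 to 14 gate UMIs. At 6 to 7 UMIs stood 5.99% of Ctrl and 8.19% of cKO cells, at 8 to 14 UMIs 21.7% and 25.4%, and at 15 or more the order turned, with 17.6% and 16.3%. Cells within 1 UMI of it made up 9.61% of Ctrl and 12.4% of cKO cells, and 9.97% and 14.8% in basal-like cells. With the minimum raised to 10 UMIs the difference was 1.58 points (-0.56 to 3.72) over all kept cells and 1.14 points in basal-like cells. Cycling cells held a median of 13 gate UMIs in Ctrl and 12 in cKO. Of the 48 gate genes 13 were higher and 5 lower in cKO over all kept cells by the fold used below, where 21.6% of all measured genes were higher and 12.6% lower, and a gate built from the members gave 5.85 points.

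**Figure D2:**
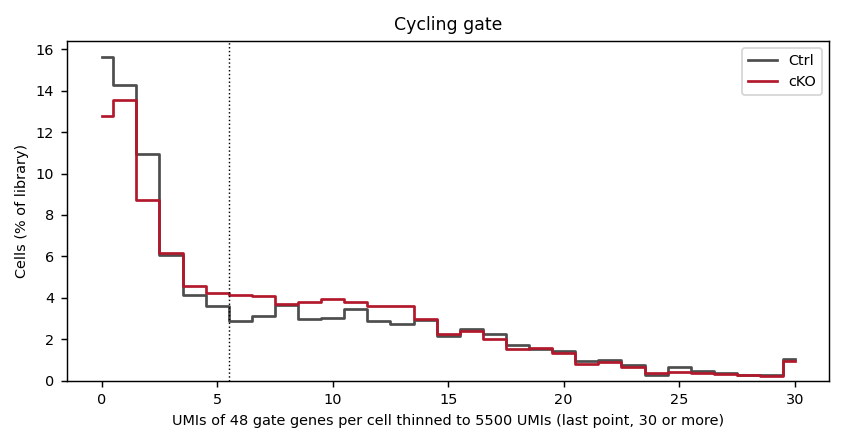
Cells of each library, in percent, by the UMIs of the 48 gate genes they held after thinning to 5500 UMIs (last point, 30 or more); the dotted line marks the gate at 6 UMIs. The cKO line lies below the Ctrl line at 0 to 2 UMIs and above it from 3 to 15 UMIs.

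Over all kept cells the members as a sum were nearly level between the libraries, at 4730 CPM in Ctrl and 4988 CPM in cKO, a ratio of 1.05 (1.05 to 1.06). A gene was counted as higher at a ratio of cKO to Ctrl of at least 1.2 and as lower at the inverse of that or less. Of all measured genes 21.6% were higher and 12.6% lower by this rule, and of the 46 members 7 (15.2%) were higher and 1 (2.17%) lower, so that both shares were under those of all genes. The 7 were *Cdca2*, *Birc5*, *Mki67*, *Cenpf*, *Ckap5*, *Ckap2l* and *Cenpa*, and the 1 was *Nusap1*. The median log2 ratio was 0.06 in the members and 0.02 over all measured genes.

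Per cycling cell the balance moved down. The members summed to 8235 CPM in 1937 Ctrl cells and to 7912 CPM in 1665 cKO cells, which made the ratio 0.961 (0.954 to 0.967). Here 2 members (4.35%) were higher, *Cdca2* and *Birc5*, and 9 (19.6%) lower, against 21.9% and 13.2% of all 10154 genes measured. The 9 were *Nusap1*, *Cdca8*, *Racgap1*, *Kif22*, *Bub1b*, *Ndc80*, *Top2a*, *Ccna2* and *Cdc20*. The median log2 ratio was -0.07 in the members and 0.02 over all genes.

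Every one of the 46 ratios was smaller per cycling cell than over all kept cells, and 13 members passed from above 1 to below it. Cycling cells held 88.4% of the members' UMIs in Ctrl and 87.8% in cKO, and 51.1% and 56.0% of all UMIs. From these shares a smaller ratio of the summed members per cycling cell follows by arithmetic. The 46 ratios share that shift and are not 46 separate observations. Median UMIs per cycling cell were 10547 and 10237. Removing the most abundant genes from the totals left 7 members higher and 1 lower over all cells and 2 higher and 8 lower per cycling cell.

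**Figure D3:**
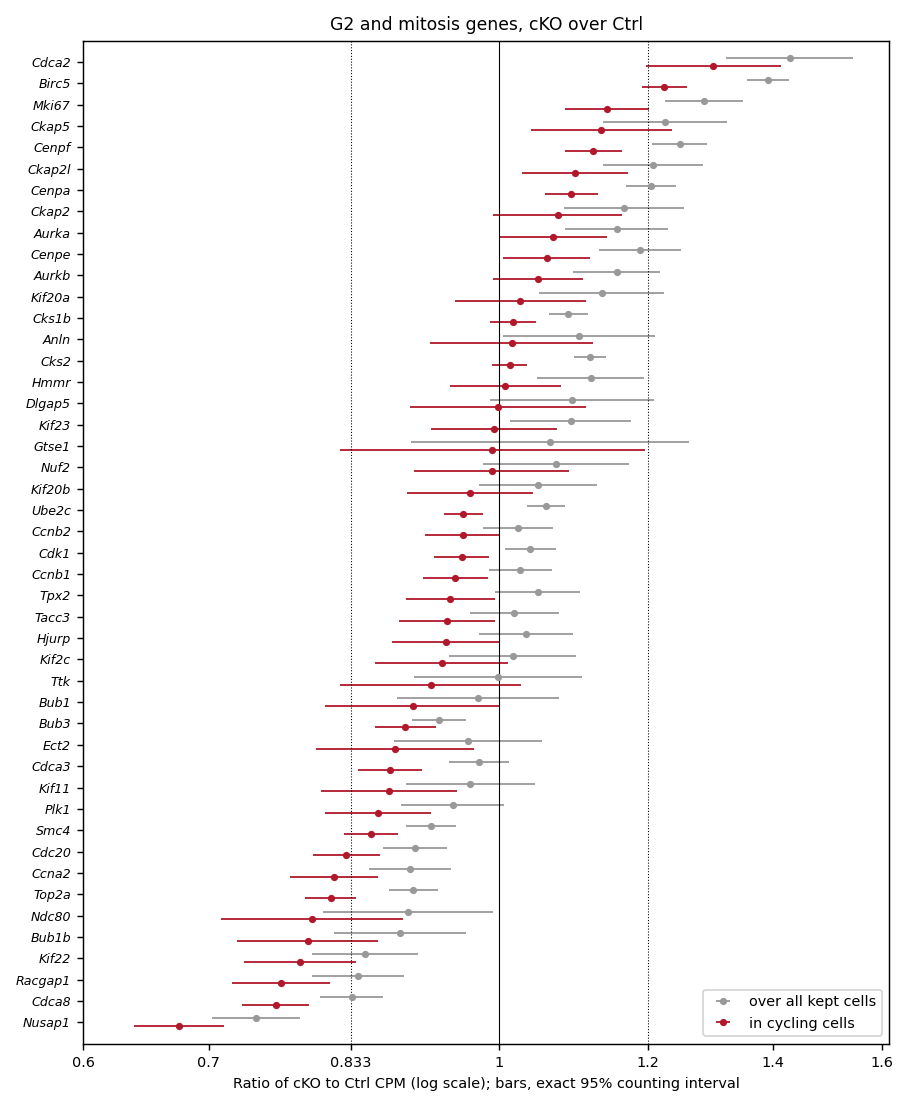
Ratio of cKO to Ctrl CPM on a log axis for each of the 46 members, over all kept cells (grey) and in cycling cells (red), with exact 95% counting intervals; dotted lines mark the fold of 1.2 in either direction. Each red point lies to the left of its grey point, from *Cdca2* (1.43 and 1.301) at the top to *Nusap1* (0.742 and 0.675) at the bottom.

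The cyclins and *Cdk1* differed little. *Cdk1*, the kinase that opens mitosis, stood at 199 CPM in Ctrl and 207 CPM in cKO over all kept cells, a ratio of 1.04 (1.01 to 1.07), and at 347 and 331 CPM in cycling cells, a ratio of 0.955 (0.923 to 0.988). Its cyclin partners of mitosis, *Ccnb1* and *Ccnb2*, had ratios of 0.948 and 0.956 in cycling cells. *Ccna2*, the cyclin of S phase and G2, was the member of this role that reached the fold, with 151 CPM in Ctrl and 123 CPM in cKO cycling cells, a ratio of 0.816 (0.773 to 0.861). The small Cdk-binding subunits *Cks1b* and *Cks2* had ratios of 1.02 and 1.01 there.

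All 3 partners of the anaphase-promoting complex, the ubiquitin ligase that ends mitosis, were below 1 in cycling cells. Its activator *Cdc20* stood at 254 CPM in Ctrl and at 211 CPM in cKO, the ratio being 0.828 (0.795 to 0.863). The ubiquitin-conjugating enzyme *Ube2c* had a ratio of 0.957 and *Cdca3*, an adaptor for mitotic entry, 0.875. Among the mitotic kinases and their activators the ratios ran from 0.861 for *Plk1*, which acts in centrosome maturation and mitotic entry, to 1.07 for *Aurka*, the spindle pole kinase, and 0 of 4 reached the fold. *Tpx2*, which activates *Aurka*, had 0.942, and *Ttk*, a kinase of the checkpoint, 0.920.

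All 3 spindle checkpoint members were below 1 in cycling cells, 1 of them past the fold. *Bub1b*, a part of the complex that restrains *Cdc20*, had 60.5 CPM in Ctrl and 47.8 CPM in cKO, a ratio of 0.790 (0.725 to 0.861). Its partners *Bub3* and *Bub1* had ratios of 0.891 and 0.899.

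Centromere and kinetochore members went both ways. *Ndc80*, which with *Nuf2* forms the arm that grips microtubules, had 20.1 CPM in Ctrl and 17.997 CPM in cKO over all kept cells, and 36.0 and 28.6 CPM in cycling cells, where the ratio was 0.794 (0.710 to 0.888). *Nuf2*, its binding partner, was at 0.991. *Cenpf*, a large coiled-coil protein of the outer kinetochore, had 160.4 CPM in Ctrl and 200.2 CPM in cKO over all kept cells, a ratio of 1.25 (1.21 to 1.29), and 1.12 (1.08 to 1.16) in cycling cells. *Cenpa*, the histone H3 variant that marks the centromere, had 1.204 and 1.09. The kinesin *Cenpe* stood at 1.19 and 1.06, and *Hjurp*, the chaperone that loads *Cenpa*, at 1.03 and 0.937.

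The 3 members of the chromosomal passenger complex, which corrects faulty attachments, were split. *Birc5* (survivin) had 251 CPM in Ctrl and 349 CPM in cKO over all kept cells, a ratio of 1.39 (1.36 to 1.43), and 451 and 553 CPM in cycling cells, a ratio of 1.22 (1.19 to 1.26). *Cdca8* (borealin), which binds survivin directly, had 153 and 128 CPM over all kept cells and 271 and 206 CPM in cycling cells, with ratios of 0.834 (0.803 to 0.867) and 0.760 (0.729 to 0.791). Their kinase *Aurkb* lay between, at 1.05 (0.992 to 1.11) in cycling cells. Within cycling cells of a library there were 1.67 UMIs of *Birc5* for each of *Cdca8* in Ctrl and 2.69 in cKO. The pair was chosen after its values had been seen. Over the 4 types it lay between 1.51 and 1.74 in Ctrl and between 2.68 and 2.75 in cKO, and the total by which CPM is scaled does not enter it.

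Of the 6 mitotic kinesins, *Kif22*, which pushes chromosome arms to the equator, was the one past the fold, with 95.7 CPM in Ctrl and 74.9 CPM in cKO cycling cells, a ratio of 0.783 (0.731 to 0.838). *Kif11*, which parts the spindle poles, had 0.874, and *Kif2c*, which takes microtubules apart at the centromere, 0.932. The kinesins of the spindle midzone and cytokinesis, *Kif20a*, *Kif20b* and *Kif23*, had ratios of 1.03, 0.965 and 0.993.

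*Nusap1*, which bundles spindle microtubules, had the lowest ratio of all members in both settings. It stood at 83.8 CPM in Ctrl and 62.1 CPM in cKO over all kept cells, a ratio of 0.742 (0.703 to 0.783), and at 160.4 and 108 CPM in cycling cells, a ratio of 0.675 (0.639 to 0.713). *Ckap5*, a microtubule polymerase, had 31.1 and 38.2 CPM over all kept cells and 48.9 and 55.4 CPM in cycling cells, with ratios of 1.23 (1.14 to 1.32) and 1.13 (1.04 to 1.24). *Ckap2l* and *Ckap2*, which bind spindle microtubules, had ratios of 1.10 and 1.07 in cycling cells, and the centrosome partner of *Ckap5*, *Tacc3*, 0.938. *Hmmr*, *Dlgap5* and *Gtse1* lay between 0.992 and 1.01.

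In cytokinesis *Racgap1*, the GTPase activator of the central spindle, had 69.7 CPM in Ctrl and 58.6 CPM in cKO over all kept cells, and 125 and 95.9 CPM in cycling cells, with ratios of 0.841 (0.794 to 0.890) and 0.765 (0.720 to 0.813). *Ect2*, the exchange factor that *Racgap1* recruits, had 0.880 in cycling cells, and *Anln*, a scaffold of the contractile ring, 1.02.

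Members of chromosome structure also lay on both sides of 1. *Mki67*, which encodes Ki-67, the coat protein of mitotic chromosomes and the usual marker of proliferation, had 77.4 CPM in Ctrl and 99.5 CPM in cKO over all kept cells, a ratio of 1.29 (1.23 to 1.35), and 136 and 155 CPM in cycling cells, a ratio of 1.14 (1.084 to 1.202). *Cdca2*, which brings a phosphatase to chromosomes at mitotic exit, had the highest ratio of all members, with 28.0 and 40.0 CPM over all kept cells, a ratio of 1.43 (1.32 to 1.54), and 49.8 and 64.8 CPM in cycling cells, a ratio of 1.301 (1.197 to 1.413). *Top2a*, the topoisomerase that untangles sister chromatids and another common marker of proliferation, had 246 and 221 CPM over all kept cells, a ratio of 0.8999 (0.8737 to 0.9268), and 432 and 351 CPM in cycling cells, a ratio of 0.813 (0.787 to 0.839). *Smc4*, the ATPase of both condensins, had 0.854. The 2 proliferation markers thus stood on opposite sides of 1, with 0.315 UMIs of *Mki67* for each of *Top2a* in Ctrl cycling cells and 0.442 in cKO.

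Some members had the same direction in all 4 types. In cycling cells 40 members were measured in every type, of which 4 had ratios above 1 in each (*Birc5*, *Ckap2*, *Ckap5* and *Cdca2*) and 16 below 1 in each, among them *Cdk1*, *Ccna2*, *Cdc20*, *Plk1*, *Bub1b*, *Cdca8*, *Kif22*, *Nusap1*, *Racgap1*, *Top2a* and *Smc4*. *Cdca2* was past the fold in all 4 types, from 1.26 to 1.38, and so were *Nusap1*, from 0.584 to 0.746, and *Cdca8*, from 0.601 to 0.833. In cycling cells *Cdca2* rested on 85 Ctrl and 80 cKO UMIs in suprabasal-like and on 55 and 107 in HF WNThi-like cells. Its ratios there are loosely set. In suprabasal-like cycling cells 1 member had an interval above 1 and 15 had one below 1. Over all cells 41 members were measured in every type, 9 being above 1 in each and 7 below. *Kif11*, chosen after its values had been seen, stood at 0.641 (0.476 to 0.856) in suprabasal-like and at 1.25 (0.993 to 1.57) in HF WNTlo-like cycling cells. All types come from the same pair of libraries, and differences between types were not tested. How often genes outside the group share a direction over the 4 types was not counted, so these counts are not a trait of the members.

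**Figure D4:**
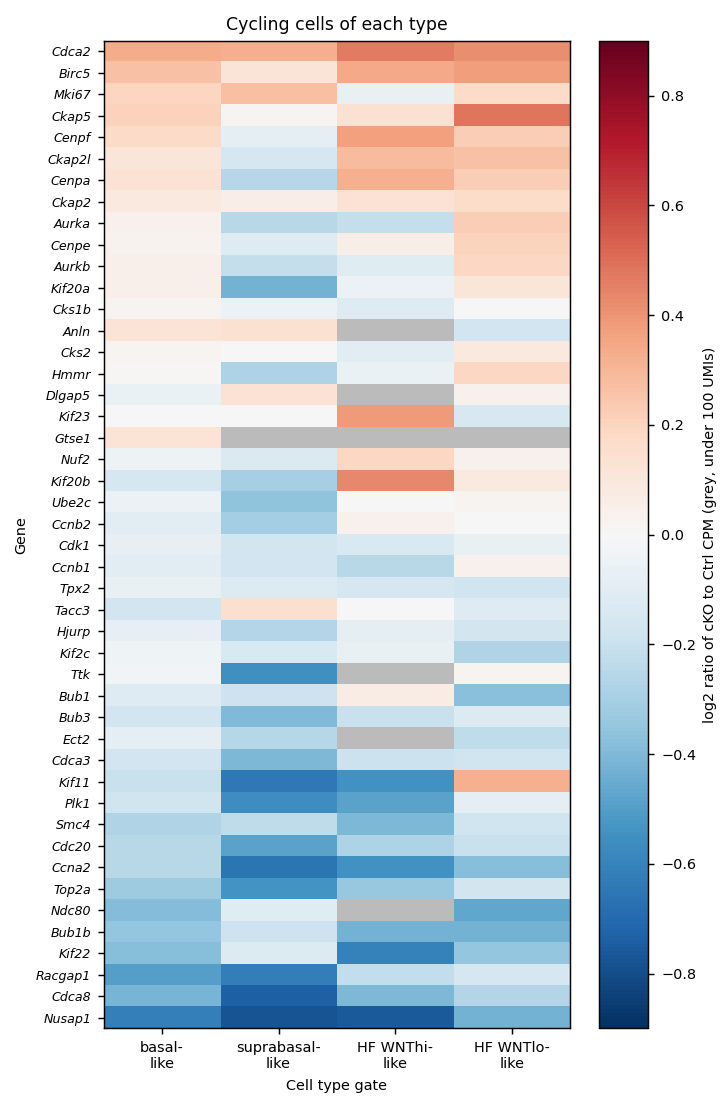
Log2 ratio of cKO to Ctrl CPM in cycling cells of the 4 gated types (columns) for the 46 members (rows, ordered by the ratio in all cycling cells); red is higher in cKO, blue lower, and grey marks fewer than 100 UMIs. *Cdca2* and *Birc5* are red in each column, the rows from *Smc4* down are mostly blue, and the suprabasal-like column is the bluest.

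Basal-like cells, the largest gate, followed the whole. Over all of them 8 of 46 members were higher and 2 lower, where 22.1% and 14.2% of all measured genes were, and per cycling cell 1 was higher and 8 lower, where 22.6% and 14.8% were. The 1 higher member was *Cdca2*, with 46.7 CPM in Ctrl and 58.9 CPM in cKO, a ratio of 1.26 (1.13 to 1.41), and *Birc5* followed with 419 and 502 CPM, a ratio of 1.199 (1.155 to 1.244), then *Ckap5* at 1.16 (1.04 to 1.29) and *Mki67* at 1.14 (1.07 to 1.22). At the other end were *Nusap1*, with 147 and 96.3 CPM and a ratio of 0.653 (0.606 to 0.703), *Racgap1* with 116 and 82.1 CPM and 0.708 (0.652 to 0.769), *Cdca8* with 251 and 188 CPM and 0.748 (0.708 to 0.789), and *Ndc80* with 32.3 and 24.7 CPM and 0.765 (0.656 to 0.891). The summed members had a ratio of 0.957 (0.948 to 0.966) per cycling cell.

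Suprabasal-like cells, which have left the basal layer to differentiate, had the lowest summed ratio per cycling cell, 0.859 (0.838 to 0.880), from 150 Ctrl and 117 cKO cells. There 17 of 45 measured members were lower and 2 higher, where 20.4% of all 3883 genes were lower and 22.7% higher. *Nusap1* (0.584), *Cdca8* (0.601), *Ccna2* (0.633), *Kif11* (0.641), *Racgap1* (0.649), *Plk1* (0.680), *Ttk* (0.683) and *Top2a* (0.689) were the 8 lowest, and *Cdca2* (1.26) and *Mki67* (1.205) the 2 higher. Over all suprabasal-like cells 11 of 45 were lower and 6 higher, beside 17.1% and 23.1% of all genes.

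HF WNThi-like cells, which carry markers of the hair placode and germ, had the most members higher over all cells, 16 of 41 measured against 18.8% of all 4965 genes, and 3 lower against 20.7%. *Cenpf* (1.62), *Kif23* (1.61), *Birc5* (1.57) and *Cdca2* (1.55) led. The 16 became 10 when each cell was thinned to 5500 UMIs and 8 with stricter marker gates. Per cycling cell, with 97 Ctrl and 135 cKO cells, 7 of 40 were higher and 10 lower, against 19.8% and 22.3%, and *Mki67* stood at 0.956 (0.779 to 1.17) in this type. In HF WNTlo-like cells, which carry *Sox9* and other follicle markers, the summed members were level per cycling cell, with a ratio of 0.997 (0.980 to 1.01), and 5 of 45 were higher and 8 lower against 16.7% and 19.8% of all genes. Over all HF WNTlo-like cells 8 were higher and 7 lower, against 15.2% and 18.9%. *Ckap5* (1.396), *Cdca2* (1.334) and *Birc5* (1.299) were the highest there per cycling cell.

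Below the gate the members as a sum were higher in cKO. Cells that did not pass it summed to 1129 CPM of members in Ctrl and 1393 CPM in cKO, a ratio of 1.23 (1.21 to 1.26), and 24 of the 45 members measured were higher and 0 lower, where 20.8% and 13.4% of all 10040 genes were. *Birc5* had 47.9 CPM in Ctrl and 103 CPM in cKO here, a ratio of 2.16 (1.99 to 2.34). *Cdca2* had 5.33 and 9.54 CPM, a ratio of 1.79 (1.38 to 2.32), and *Mki67* 15.4 and 26.9 CPM, a ratio of 1.744 (1.501 to 2.027). Of the 9 members that were lower per cycling cell, 0 were lower here and 7 lay between the folds, among them *Nusap1* at 1.10 (0.823 to 1.46), *Cdca8* at 1.02 (0.910 to 1.15) and *Top2a* at 1.08 (0.983 to 1.18). The other 2 were higher, *Bub1b* at 1.38 (1.04 to 1.84) and *Ndc80* at 1.27 (0.909 to 1.77). By type, 29 of 41 measured members were higher and 0 lower below the gate in basal-like cells, beside 21.0% and 16.0% of all genes, 11 of 17 and 0 in suprabasal-like cells, beside 23.5% and 18.9%, 2 of 6 and 0 in HF WNThi-like cells, beside 16.5% and 23.3%, and 3 and 5 of 14 in HF WNTlo-like cells, beside 14.4% and 21.6%. In that last type the lower members outnumbered the higher ones.

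When cells were split by gate UMIs, a split chosen after the data had been seen, the directions of *Cdca2*, *Birc5*, *Nusap1*, *Cdca8* and *Top2a* in cycling cells were seen in each of the 3 bins past the gate. These members were named from the same cycling cells that the 3 bins divide, so the bins are not separate support. Cells with 15 or more gate UMIs, 753 Ctrl and 544 cKO, had 65.5 and 94.6 CPM of *Cdca2*, a ratio of 1.45 (1.29 to 1.62), and 568 and 717 CPM of *Birc5*, a ratio of 1.26 (1.21 to 1.31). In the same cells *Nusap1* had 246 and 179 CPM, a ratio of 0.726 (0.675 to 0.782), *Cdca8* a ratio of 0.787 and *Top2a* 0.830 (0.790 to 0.871). Cells with 0 gate UMIs, 669 Ctrl and 426 cKO, held 15.1 and 45.9 CPM of *Birc5*, from 90 and 165 UMIs, a ratio of 3.05 (2.34 to 3.98), and the ratio was 2.55 at 1 to 2, 1.64 at 3 to 5 and 1.31 at 6 to 9 gate UMIs. The median log2 ratio was 0.23 over 14 measured members at 0, 0.21 over 25 at 1 to 2, 0.17 over 42 at 3 to 5, 0.02 over 45 at 6 to 9, -0.04 over 46 at 10 to 14 and 0.03 over 46 at 15 or more gate UMIs, so the lower bins do not hold the same set of members as the upper ones. Free RNA, read in barcodes with 10 to 100 UMIs, held 266 CPM of *Birc5* in Ctrl and 412.5 CPM in cKO, and its part in the cells below the gate was not tested. Subtracting 5% of it from all kept cells left 6 members higher and 2 lower.

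Members with a long coding exon had ratios above 1 over all kept cells. Exon structure was read from GENCODE vM21 on GRCm38, since m6A is known to be laid down mostly in long internal exons and in the region of the stop codon. The 6 members whose longest coding exon had at least 1000 bases were *Mki67* (6836 bases), *Cenpf* (3428), *Hjurp* (1475), *Ckap2l* (1244), *Kif20b* (1234) and *Cdca2* (1160), and 6 of 6 were above 1, with a median log2 ratio of 0.30, as were 1086 of 1406 measured genes of that kind, with a median of 0.20. Of the 37 members under 500 bases 20 were above 1, with a median of 0.03, as were 3497 of 7690 measured genes of that kind, with a median of -0.03. In cycling cells 4 of the 6 and 11 of the 37 were above 1, beside 930 of 1225 and 3288 of 7153 measured genes of the same 2 kinds. Spearman's rho between the longest coding exon and the log2 ratio was 0.31 over the 46 members and 0.30 over 10820 genes. These points share both libraries and their depth, and genes are not independent replicates. Of the 7 members higher over all kept cells, *Birc5* (118 bases), *Cenpa* (132) and *Ckap5* (240) had no long coding exon. The core of the m6A consensus, GGACT, stood at a median of 0.84 per 1000 coding bases in members above 1 and 0.87 in those below 1.

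**Figure D5:**
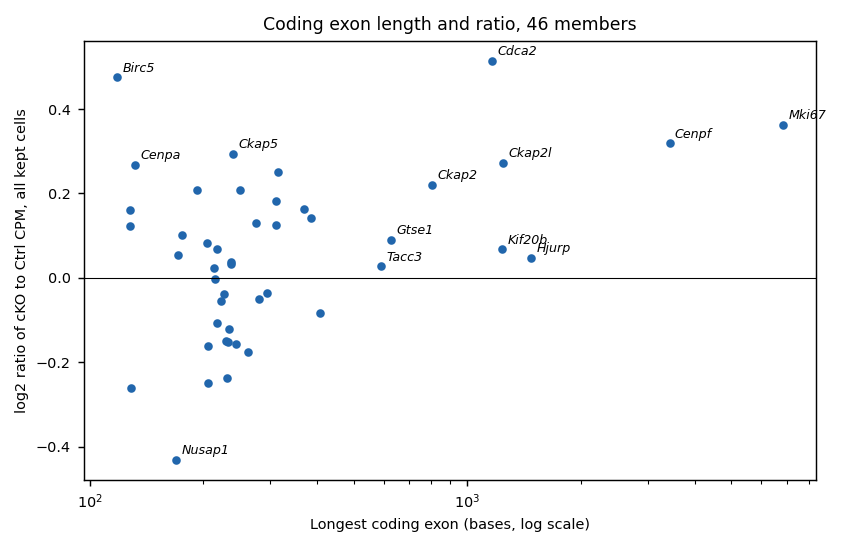
Log2 ratio of cKO to Ctrl CPM over all kept cells against the longest coding exon in bases (log axis) for the 46 members. The 6 points at 1000 bases or more all lie above 0, the shorter ones lie on both sides of it, and *Birc5* lies high at 118 bases.

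Genes of related function outside the group gave the surroundings. Of 44 S phase genes, which serve DNA replication, 4 were higher and 10 lower over all kept cells, with a median log2 ratio of -0.19. Of all genes measured there 21.6% were higher and 12.6% lower. In cycling cells 4 of the 44 were higher and 18 lower, with a median of -0.21. Beside this count and those of the next 4 lists stand the 21.9% higher and 13.2% lower of all genes in cycling cells. The highest S phase gene was *Exo1*, an exonuclease (1.47), and the lowest *Dscc1*, a clamp loader subunit (0.581). Of 19 measured regulators of G2 and M transcription 1 was higher, *E2f3* (1.47), and 2 were lower, *Rb1* (0.714) being the lowest, with a median of -0.10. Of 16 genes listed here as brakes on mitotic entry 3 were higher and 2 lower, with a median of 0.07. The Cdk inhibitor *Cdkn1c* was the lowest of that list, at 219 CPM in Ctrl and 105 CPM in cKO, a ratio of 0.482 (0.457 to 0.508). *Sfn*, the epithelial 14-3-3 protein, was the highest, with a ratio of 1.45 (1.43 to 1.48). Whether either acts on mitotic entry in these cells was not tested. Of 16 subunits of the anaphase-promoting complex itself 2 were higher and 2 lower, from *Anapc5* (0.739) to *Anapc15* (1.595), and of 16 measured condensin and cohesin genes 0 were higher and 4 lower, with *Smc1a* the lowest (0.749) and a median of -0.17.

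Some members share exon bases with a gene on the other strand, *Ccna2* with *Exosc9*, *Cdca8* with *9930104L06Rik* and *Nusap1* with *Oip5* among them. The strand setting of the counting was not given in the sources used here, and whether their counts hold reads of both genes was not tested. *Ckap5* and *Top2a* share exon bases with a small nucleolar RNA gene on the same strand, *Snord67* and *Gm23451*.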

How the data were processed

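The deposited tables hold raw UMI counts for each gene in each barcode, and the authors obtained them with Cell Ranger and the mm10 genome (version 2.0 in the submitters' processing notes, a later one in the methods) from 10x 3′ libraries. The annotation release is not given in the sources used here. Every possible barcode was listed, so the counts precede cell calling and aggregation. The libraries held 59664869 (Ctrl) and 49755010 (cKO) UMIs, of which kept cells held 43874554 and 34116275.

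The members and lists were chosen with earlier results of these data known. For each group of cells and library the UMIs of a gene were added up and divided by those of all genes. CPM carry exact Poisson intervals, ratios exact conditional binomial intervals and shares exact binomial (Clopper-Pearson) intervals, with 95% coverage. A gene counted as measured in a group with 100 or more UMIs from the libraries together. On counts simulated for all kept cells with counting error only, as the intervals assume, they held the true ratio in 95.65% of genes. The fold of 1.2 called 90.0% of 50 genes raised 1.3-fold and 4.58% of unchanged genes there. For cycling basal-like cells it called 86% and 8.12%. The spread between cells or embryos was not simulated. With 1 library per group no test was made.

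Gates used marker UMIs scaled to 5500 per cell: at least 16 for suprabasal-like (*Krt1*, *Krt10*, *Sbsn*, *Lor*, *Krt77*), 4 for HF WNThi-like (9 genes including *Shh*, *Dkk4* and *Lhx2*) and HF WNTlo-like (7 genes including *Sox9* and *Krt79*), and 10 for basal-like (*Krt14*, *Krt5*, *Krt15*) with fewer than 2 follicle UMIs. Cells with at least 4 UMIs of another type's markers were set aside, and 295 Ctrl and 326 cKO cells passed no gate. All gate minimums, that of the cycling gate included, were set after the histograms of both libraries together had been seen. Scrublet marked 7 Ctrl (0.157%) and 2 cKO cells (0.056%), too few to have worked, so an alternative removed the 4% highest scores, 178 and 143 cells.

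Members with full values are those past the fold in 1 direction both over all kept cells and per cycling cell, the 4 highest and 4 lowest ratios per cycling basal-like cell, *Mki67*, *Top2a* and *Cdk1*. Of other lists the highest and lowest gene is named. A few further members carry both values to show a role. Alternatives changed scaling, filters, gates, free RNA, doublets, minimum UMIs and the fold, 1 at a time. Work used Python 3.11.15, numpy 2.4.6, scipy 1.17.1, pandas 2.3.3, scanpy 1.11.5 and matplotlib 3.10.9.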

Additional observations from a re-analysis of the deposited data

How the results depend on the processing

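Of 4556 member values recomputed under 13 alternatives, 265 crossed a ratio of 1, in every gate and both over all and in cycling cells. Of those, 4 had been past the fold as reported, all in hair follicle gates: *Cdc20* in HF WNThi-like cycling cells taken as the top 20% by gate UMIs (log2 ratio 0.0118), and with stricter marker gates *Bub1* (0.0429) and *Bub1b* (0.0527) over all HF WNTlo-like cells and *Bub1* (0.00692) in cycling ones. Apart from these 4, 4457 values stayed within their counting interval and 95 moved out of it. The minimum of 20 UMIs and the fold of 1.4 change counts only. Values of cycling cells were not recomputed for the minimum of 1000 genes. At 1.2-fold, 5 to 8 members were higher and 1 to 4 lower over all kept cells, and 2 to 3 higher and 8 to 9 lower per cycling cell. The cause of a move was not tested.

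A fold of 1.4 cut nearly every count. Over all cells and per cycling cell, higher members came to 1 and 0 in all kept cells, 1 and 0 in basal-like, 0 and 0 in suprabasal-like, 8 and 0 in HF WNThi-like and 1 and 0 in HF WNTlo-like cells, and lower members to 0 and 1, 0 and 2, 4 and 8, 0 and 4, and 0 and 0 in the same order. Other counts moved by over 1.5 times as follows. Lower members over all kept cells were 2 with cells thinned to 5500 UMIs or with 5% free RNA subtracted, 3 under median-of-ratios scaling and 4 with at least 1000 genes per cell, which also gave 4 lower in basal-like and 3 higher in HF WNTlo-like cells. Higher members per cycling basal-like cell were 2 with 2500 genes, at most 10% mitochondrial UMIs, totals without abundant genes, every other gate minimum, the top 20% or the gate on members. Per cycling suprabasal-like cell they were 0 with the top 20% and 1 with 2500 genes, thinning, the mitochondrial limit, the raised gate, the gate on members, stricter marker gates, totals without abundant genes or doublets removed. In HF WNThi-like cells thinning gave 10 higher over all cells and 4 per cycling cell, stricter gates 8 and 3, and a minimum of 20 UMIs 5 lower over all. In HF WNTlo-like cells totals without abundant genes gave 13 higher over all and doublet removal 4. Per cycling cell of this type 8 were higher with thinning and 3 with the raised gate, the gate on members, stricter gates or doublets removed, and 4 were lower over all cells with 2500 genes, thinning or stricter gates.

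The excess of cycling cells in cKO was 7.52 points over all kept cells with 2500 genes, and 1.58 points over all kept cells and 1.14 points in basal-like cells with the gate raised to 10 UMIs. In suprabasal-like cells it turned to -0.86 points with the raised gate and -0.39 points with the mitochondrial limit. No paired analysis was possible because each genotype has 1 library. Depth limits the hair follicle and suprabasal-like gates most, where 1 to 6 members had under 100 UMIs over all or cycling cells, and below the cycling gate 29 in suprabasal-like, 40 in HF WNThi-like and 32 in HF WNTlo-like cells.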
